A study of Mus musculus with 16 samples.

Results

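The genes of cholesterol and fatty acid synthesis, with their regulators and the genes of sterol efflux, were followed in neural stem cells (NSC) after depletion of the long non-coding RNA RUS. The set was chosen by name and holds 36 of the 55365 gene lines that carry the same symbol in the tables of both days, and each of the 36 occurs once in each table and passed the filter on low values. NSC from cortices of C57BL/6 mouse embryos at E15-16 were grown as monolayers with FGF2 and serum, and 1 day after seeding they were given lentivirus for either of 2 hairpins, a scrambled one (shRNA CON) or one directed at RUS (shRNA RUS). PolyA RNA was sequenced on day 5 and on day 7 after seeding, which gave 4 groups of 4 libraries, 16 libraries altogether. The controls thus carried a virus too, and no untransduced cells were analysed here. The cells came from pooled embryos of both sexes and were bulk cultures, and differentiation was started on day 5 by a change to Neurobasal medium. The sources do not say whether RNA of day 5 was taken before this change, and day and medium cannot be told apart. Nothing in the labels says whether the 4 libraries of a group came from separate cultures, and the p-values then measure the spread between these libraries, which may be technical.

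Cells make cholesterol from acetyl-CoA. The mevalonate arm builds isoprenoid units and joins them into farnesyl diphosphate, and the sterol arm turns farnesyl diphosphate into squalene, lanosterol and finally cholesterol. The transcription factors SREBP-1 and SREBP-2 (encoded by Srebf1 and Srebf2) switch on most genes of both arms when sterols are low: the escort protein Scap carries the precursors to the Golgi for cleavage, and Insig1 and Insig2 hold Scap back in the endoplasmic reticulum when sterols are plentiful. The nuclear receptors LXR alpha and LXR beta (Nr1h3 and Nr1h2) respond to oxysterols and raise the transcription of the exporters Abca1 and Abcg1, of the lipoprotein Apoe and of Srebf1. In the brain, which is shielded from cholesterol of the blood, cells depend on their own synthesis, and glia hand cholesterol to neurons in particles that contain Apoe.

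SREBP binds sterol regulatory elements, often with the CCAAT-binding factor NF-Y close by. Promoter windows (RefSeq, GRCm38.p6, 250 bases before to 50 after the start) were matched by symbol for 28 of the 36 genes. A search on both strands for the CCAAT box (letters CCAAT) found it in 20 of these 28 genes (71.4%), against 41.1% of all 27025 genes with a window. Among the cholesterol synthesis genes it was present in 14 of 15 with a window (93.3%), and in 9 of 9 of the sterol arm. Many genes have more than 1 window; with those of a single window alone, 12 of 13 cholesterol synthesis genes (92.3%) and 38.2% of all genes held it. Outside both arms 6 of 13 genes held a CCAAT box (46.2%), among them Srebf1, Srebf2, Insig1 and Insig2, and neither of the 2 efflux genes with a window did. The sterol regulatory element in the letters TCACNCCAC was found in Hmgcs1 alone among the 28 genes, and in 1.44% of all genes, and an LXR element written as AGGTCA, 4 bases of any kind and AGGTCA again was in none of the 28 and in 4 of the 27025 genes. These are matches of letters in a short window and not sites of binding.

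The windows below were chosen after the values were seen. Hmgcs1 is shown because it holds the sterol regulatory element, Idi1 and Dhcr7 because they had the largest falls of the cholesterol synthesis genes on day 5, and Tm7sf2 and Hsd17b7 because they rose. Each is the stretch of 250 bases before the start, in the direction of transcription, with matches in capitals (CCAAT or, on the other strand, ATTGG; in Hmgcs1 also the sterol regulatory element). Hmgcs1 lies at chr13:119690101-119690350, plus strand, Idi1 at chr13:8885356-8885605, plus strand, Dhcr7 at chr7:143829964-143830213, plus strand (the only one of its 3 windows with a match), Tm7sf2 at chr19:6067851-6068100, minus strand, and Hsd17b7 at chr1:169969206-169969455, minus strand.
Hmgcs1: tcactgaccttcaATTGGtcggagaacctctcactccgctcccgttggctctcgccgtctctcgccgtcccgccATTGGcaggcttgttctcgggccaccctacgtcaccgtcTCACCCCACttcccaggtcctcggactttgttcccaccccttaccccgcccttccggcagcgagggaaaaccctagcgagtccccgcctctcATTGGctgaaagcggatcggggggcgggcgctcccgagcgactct
Idi1: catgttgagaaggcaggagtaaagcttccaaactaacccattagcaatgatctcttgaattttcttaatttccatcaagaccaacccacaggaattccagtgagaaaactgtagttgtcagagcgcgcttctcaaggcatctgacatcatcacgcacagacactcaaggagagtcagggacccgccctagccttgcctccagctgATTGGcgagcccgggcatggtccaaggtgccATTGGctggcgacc
Dhcr7: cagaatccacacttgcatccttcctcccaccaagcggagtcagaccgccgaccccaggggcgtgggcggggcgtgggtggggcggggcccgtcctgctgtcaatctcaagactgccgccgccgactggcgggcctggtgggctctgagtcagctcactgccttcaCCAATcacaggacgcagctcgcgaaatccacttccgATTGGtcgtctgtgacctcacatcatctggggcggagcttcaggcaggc
Tm7sf2: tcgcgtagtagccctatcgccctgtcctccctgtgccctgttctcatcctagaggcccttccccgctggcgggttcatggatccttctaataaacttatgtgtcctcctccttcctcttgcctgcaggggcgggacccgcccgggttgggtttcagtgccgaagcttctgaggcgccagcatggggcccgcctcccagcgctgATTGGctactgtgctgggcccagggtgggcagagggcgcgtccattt
Hsd17b7: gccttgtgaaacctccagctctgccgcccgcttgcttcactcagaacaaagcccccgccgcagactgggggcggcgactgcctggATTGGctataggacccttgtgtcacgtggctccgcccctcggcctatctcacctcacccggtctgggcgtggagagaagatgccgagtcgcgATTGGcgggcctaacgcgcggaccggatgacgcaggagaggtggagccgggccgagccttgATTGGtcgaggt
The sterol regulatory element of Hmgcs1 starts at position -137 (counted from the first transcribed base, negative before it) and shares no base with its CCAAT boxes. Genes that fell and genes that rose upon RUS depletion both held the CCAAT box: 6 of the 8 genes with a window that were lower on both days, and 3 of the 6 that were higher on both days.

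Levels are given as scaled TPM, transcript abundances per length divided by 1 factor per library so that all 16 libraries share a scale, and values after ± are SD of 4 libraries. Knockdown effects are log2 fold changes of shRNA RUS over shRNA CON from a fit per day with limma, given with the SE, and a gene is called where its adjusted p is under 0.05. RUS itself (Gm20754, a lincRNA at chr3:73066316-73594830 on the plus strand, GRCm38) was near the lower limit of these data: on day 5 it had a TPM of 0.11 to 0.24 in shRNA CON and of 0 to 0.32 in shRNA RUS (exact permutation test, two-sided, p = 0.543), and on day 7 of 0.26 to 0.72 and of 0 to 0.54 (p = 0.143; the smallest p this test can give is 0.0286). The groups overlapped on both days, so the depletion was not detectable with this measure. The paper reports lower RUS in the knockdown cells by RT-qPCR, a measure not available here. The files hold no counts per library, and depth is unknown; between 25615 and 29126 genes had a TPM above 0. The library labelled replicate 4 of shRNA RUS on day 5 stood apart, lying nearest to the controls on the first principal component of that day. It also had the highest TPM of RUS of that day (0.32, above every control), at a level near the lower limit. On that component it was at 15.9, on the side of shRNA RUS, with the controls at -53.6 to -26.2. Each of the 10 proliferation genes was lower in it than in every control of day 5. The counts of day 5 and the calls that turn on this library are given with and without it.

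The cultures expressed the astrocyte and radial glia list (10 genes, among them Fabp7 and Gfap) at a summed level of 9360 to 10300 in shRNA CON and 12900 to 13500 in shRNA RUS on day 5, and of 4730 to 4960 and 5370 to 5740 on day 7. The genes of this list did not move together: 4 rose and 1, Slc1a2 (-0.65 ± 0.12, adjusted p = 0.0034), fell on day 5, and 4 rose and 2, S100b (-0.54 ± 0.08, adjusted p = 0.000314) and Slc1a3 (-0.15 ± 0.05, adjusted p = 0.0289), fell on day 7. All 10 proliferation genes were lower in shRNA RUS on both days, with sums of 779 to 807 against 435 to 484 on day 5 and 798 to 810 against 324 to 363 on day 7. The microglia and macrophage list did not separate the groups on day 5 (189 to 207 against 175 to 253), with Trem2 and Tyrobp higher and Csf1r and Ptprc lower, but all 10 of its genes were lower on day 7 (458 to 507 against 223 to 280). For comparison with the counts of these lists, 14.8% of all genes were higher and 17.9% lower on day 5, and 23.4% and 25.8% on day 7. Of the 10 neuronal genes, 3 were higher and 2 lower on day 5, and 6 were higher and 2 lower on day 7, with sums of 630 to 717 against 696 to 761 and of 801 to 890 against 795 to 928. The oligodendrocyte lineage list had 4 genes lower and 1 higher on day 5, and 7 lower and 1 higher on day 7, with sums of 378 to 466 against 433 to 580 and of 487 to 529 against 420 to 451. Fibroblast and vascular genes were low (sums of 15.8 to 42.2), with 7 of 10 tested, 1 and 3 of them higher; Cldn5 was at 0 in shRNA CON and Cdh5 in shRNA RUS on day 7. The part of these shifts in the lipid gene results was not tested, and in bulk RNA fewer cells of a type and less RNA per cell cannot be told apart.

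**Figure D1:**
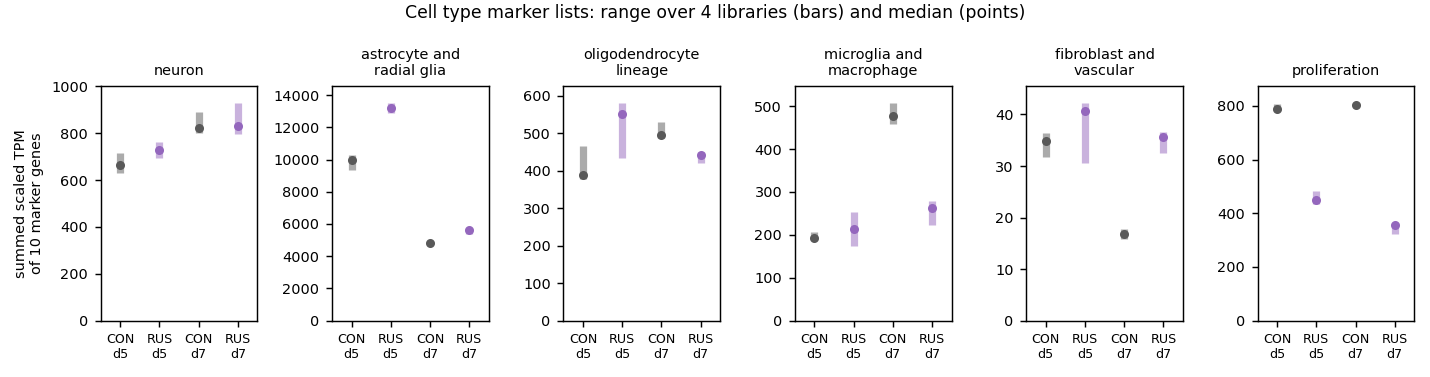
Summed scaled TPM of the 10 genes of each cell type marker list (y axis, from 0) in the 4 groups (x axis; CON and RUS, d5 for day 5 and d7 for day 7), with bars from the lowest to the highest of 4 libraries and points at the median. Proliferation genes were lower in shRNA RUS on both days and microglia genes on day 7, where the sums were 223 to 280 against 458 to 507.

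The lipid genes spanned a wide range of levels. Apoe led in every group, at 7632 ± 1231 scaled TPM in shRNA CON on day 5, followed by Scd2, a stearoyl-CoA desaturase, at 1337 ± 43.7. Hmgcs1, which condenses acetyl-CoA units into HMG-CoA, was next at 226 ± 5.72. Srebf1 (122 ± 7.24), Fdps (120 ± 2.80) and Abca1 (119 ± 10.2) came after it and lay within their SD of each other. At the lower end were Stard4 (13.6 ± 1.03), Nr1h3 (8.79 ± 0.874) and Abcg1 (0.932 ± 0.143), which did not overlap in their SD. The reads behind these levels differed: the authors' mean normalized signal per TPM had a median of 74.4 over the 36 genes on day 5, but was 1.95 for Fdps and 6.61 for Idi1, against at least 24.5 for the other 34. Values of Fdps and Idi1 therefore rest on few reads for their level, with authors' means of 209 and 220 on day 5 and of 96.0 and 157 on day 7; the cause was not tested. Acat2 and the pair Scd1 and Scd2 have close paralogs with which reads may be shared, and their values are uncertain to that extent.

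On day 5, RUS depletion went with lower levels of 15 of the 36 genes (41.7%) and higher levels of 7 (19.4%), while 14 were not called. Over all genes tested 17.9% were called lower and 14.8% higher, 32.7% together. On day 7, 15 were lower (41.7%) and 13 higher (36.1%), against 25.8% and 23.4% of all genes (49.2% together). Without the library labelled replicate 4 of shRNA RUS on day 5, 16 were lower and 10 higher on that day, against 20.3% and 17.4% of all genes. With TPM as deposited, where the median of all genes moved from -0.06 to -0.20 (log2), the split on day 5 was 19 lower and 5 higher, and that of all genes moved to 26.7% lower and 7.83% higher. On the scale of each day's own 8 libraries, the groups did not overlap for 14 genes with all shRNA RUS libraries below shRNA CON and for 5 above on day 5 (18.7% and 14.1% of all genes), and for 15 and 13 on day 7 (24.7% and 22.3%); on the scale of all 16 libraries Scd2 overlapped on day 5. In all, 31 genes were called on at least 1 day, 17 of them on both days in the same direction and 2, Srebf1 and Scd2, in opposite directions. Across the 36 genes, which are not independent of each other, the effects of the days correlated with r = 0.762 (Spearman's rho 0.763). The counts over both days and this correlation were not computed over all genes, so they cannot be taken as particular to this set.

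**Figure D2:**
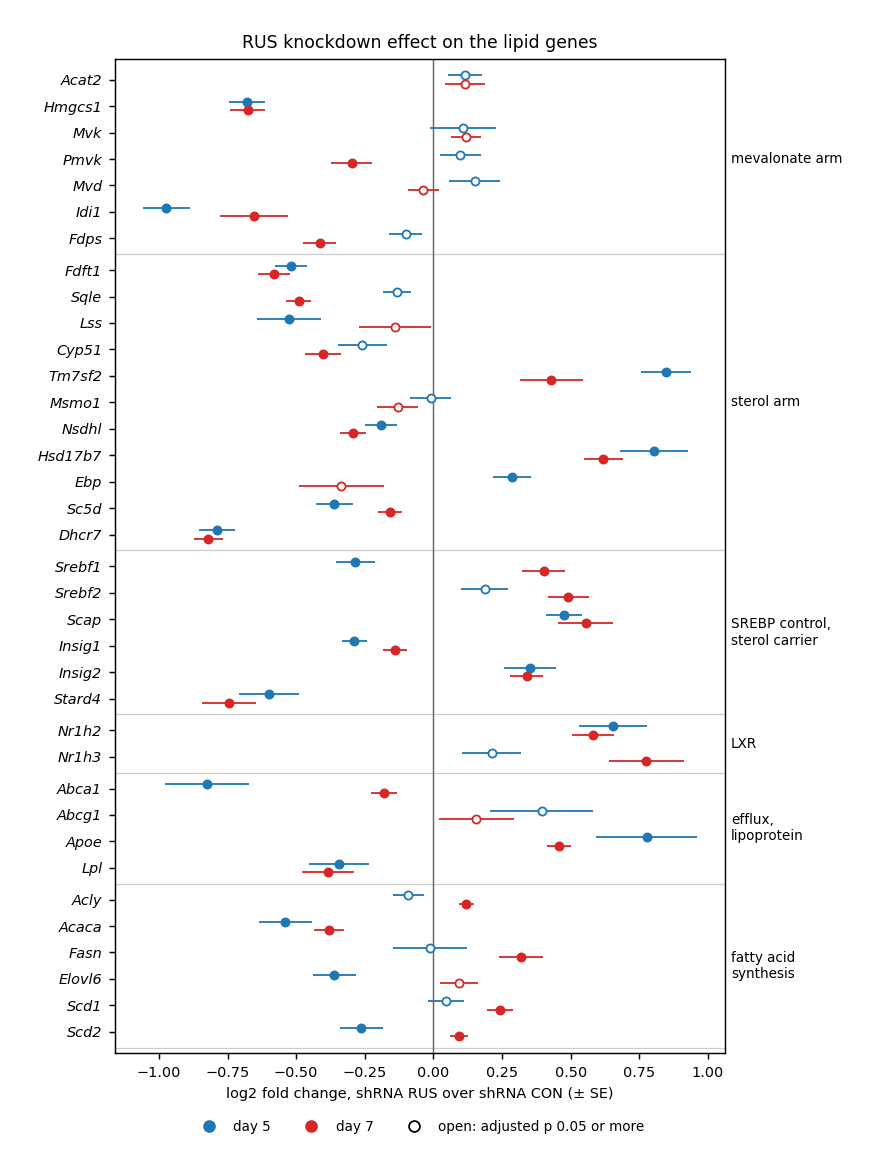
Log2 fold change of shRNA RUS over shRNA CON with its SE (x axis) for the 36 genes (y axis) grouped by role, on day 5 (blue) and day 7 (red), 4 libraries a group, with filled points where the adjusted p was under 0.05. Hmgcs1, Idi1, Fdft1 and Dhcr7 lie left of zero on both days, Tm7sf2 and Hsd17b7 right of it, and Srebf1 and Scd2 change sides between the days.

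In the mevalonate arm of 7 genes, 2 fell and none rose on day 5 (17.9% and 14.8% of all genes), and 4 fell and none rose on day 7 (25.8% and 23.4% of all genes). Hmgcs1 was at 228, 232, 227 and 218 scaled TPM in the shRNA CON libraries of day 5 and at 153, 130, 132 and 151 in shRNA RUS. On day 7 it was at 156, 161, 158 and 169 against 114, 100.3, 94.2 and 91.4. All shRNA RUS libraries lay below all controls of their day, by about the same step on both days. The log2 fold change was -0.68 ± 0.06 (adjusted p = 8.98e-05) on day 5 and -0.68 ± 0.06 (adjusted p = 2.09e-05) on day 7.

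Idi1, the isopentenyl diphosphate isomerase, had the deepest estimated fall of the whole set on day 5, where it and Abca1 (-0.82 ± 0.15) overlapped in their SE. It was at 46.7, 50.5, 47.4 and 43.2 scaled TPM in shRNA CON and at 25.7, 21.0, 22.3 and 26.7 in shRNA RUS on day 5, and at 24.1, 27.7, 21.8 and 30.1 against 17.7, 19.1, 14.1 and 14.3 on day 7. The groups did not overlap on either day. Its effect was -0.97 ± 0.09 (adjusted p = 6.68e-05) on day 5 and -0.65 ± 0.12 (adjusted p = 0.00174) on day 7.

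Fdps, which makes farnesyl diphosphate, and Pmvk, the phosphomevalonate kinase, were lower on day 7 and not called on day 5, although Fdps was called lower on day 5 too with TPM as deposited and with quantile normalization. Fdps stood at 117, 121, 121 and 123 scaled TPM in shRNA CON and at 117, 115, 117 and 100.5 in shRNA RUS on day 5, which overlap. On day 7 it was at 59.2, 57.5, 56.0 and 58.5 against 49.0, 41.2, 39.5 and 42.5, without overlap. The change was -0.10 ± 0.06 (adjusted p = 0.226) and then -0.41 ± 0.06 (adjusted p = 0.000348). Pmvk was at 52.2, 61.3, 60.8 and 59.7 against 62.1, 66.0, 65.4 and 56.5 on day 5, and at 36.8, 30.4, 33.6 and 33.9 against 28.5, 27.5, 28.4 and 23.9 on day 7. The groups of Pmvk overlapped on day 5 and were apart on day 7, with changes of 0.10 ± 0.07 (adjusted p = 0.35) and -0.30 ± 0.07 (adjusted p = 0.00786). For both genes the difference between the days passed the test (-0.33 ± 0.09 with adjusted p = 0.0107 for Fdps, -0.41 ± 0.11 with adjusted p = 0.00905 for Pmvk), but not with TPM as deposited.

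The other 3 genes of this arm did not pass the test on either day, although Acat2 was called higher on day 5 without replicate 4 of shRNA RUS (0.16 ± 0.05, adjusted p = 0.0333) and Mvk on day 7 without replicate 1 of shRNA RUS. Acat2, the cytosolic thiolase of the first step, had log2 fold changes of 0.11 ± 0.06 and 0.11 ± 0.07 on days 5 and 7, the mevalonate kinase Mvk of 0.11 ± 0.12 and 0.12 ± 0.05, and the diphosphate decarboxylase Mvd of 0.15 ± 0.09 and -0.04 ± 0.06. Genes of consecutive steps thus differed: the kinases and the decarboxylase lay between 2 enzymes, Hmgcs1 and Idi1, that were at 0.625 and 0.509 of their control mean on day 5.

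In the sterol arm of 11 genes, 5 fell and 3 rose on day 5 (17.9% and 14.8% of all genes), and 6 fell and 2 rose on day 7 (25.8% and 23.4% of all genes). Dhcr7, the reductase that makes cholesterol from 7-dehydrocholesterol, had the largest fall of this arm. It was at 39.8, 37.1, 40.2 and 34.5 scaled TPM in shRNA CON and at 20.5, 23.2, 21.5 and 22.2 in shRNA RUS on day 5, and at 20.5, 20.1, 19.3 and 21.4 against 11.6, 11.6, 10.5 and 11.8 on day 7. Every shRNA RUS library lay below every control of its day, and shRNA RUS on day 5 was about where shRNA CON arrived on day 7. The effect was -0.79 ± 0.07 (adjusted p = 5.67e-05) on day 5 and -0.82 ± 0.05 (adjusted p = 1.98e-06) on day 7.

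Sqle, the squalene epoxidase, which performs a rate-limiting step, was lower on day 7. On day 5 it was at 73.7, 80.0, 80.9 and 80.4 scaled TPM in shRNA CON and at 74.5, 71.7, 69.4 and 70.9 in shRNA RUS, where 1 control lay among the shRNA RUS libraries. On day 7 the groups were apart, at 86.2, 88.2, 88.0 and 85.7 against 65.6, 63.5, 59.7 and 56.7. Its effect went from -0.13 ± 0.05 (adjusted p = 0.0719) to -0.49 ± 0.05 (adjusted p = 2.15e-05), and this difference passed the test (-0.37 ± 0.07, adjusted p = 0.000722). Sqle was called lower on day 5 too with TPM as deposited, with quantile normalization, in the fit over all 16 libraries and without replicate 1 of shRNA CON.

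Tm7sf2, a sterol reductase of the nuclear envelope and endoplasmic reticulum, went the other way. It was at 24.4, 25.8, 24.7 and 26.5 scaled TPM in shRNA CON and at 46.5, 51.0, 48.0 and 37.7 in shRNA RUS on day 5, and at 12.6, 15.4, 11.3 and 10.2 against 15.9, 15.6, 16.1 and 17.8 on day 7. All shRNA RUS libraries lay above all controls, by a smaller margin on day 7. The rise was 0.85 ± 0.09 (adjusted p = 0.000165) and 0.43 ± 0.11 (adjusted p = 0.0114), and the difference between the days passed narrowly (-0.43 ± 0.15, adjusted p = 0.0444), a call lost under most alternatives. Hsd17b7, the sterol ketoreductase, also rose on both days, from 19.8 ± 3.36 to 34.4 ± 4.55 scaled TPM on day 5 (0.80 ± 0.13, adjusted p = 0.00124) and from 18.1 ± 0.963 to 27.7 ± 2.79 on day 7 (0.62 ± 0.07, adjusted p = 7.21e-05).

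Fdft1, the squalene synthase that commits farnesyl diphosphate to sterols, fell on both days, from 92.3 ± 1.55 to 64.5 ± 4.81 scaled TPM on day 5 (-0.52 ± 0.06, adjusted p = 0.000223) and from 51.1 ± 3.06 to 33.8 ± 2.23 on day 7 (-0.58 ± 0.06, adjusted p = 3.02e-05). Nsdhl, a sterol dehydrogenase, and Sc5d, a sterol desaturase, fell less on both days (-0.19 ± 0.06 and -0.29 ± 0.05 for Nsdhl, -0.36 ± 0.07 and -0.16 ± 0.04 for Sc5d); the day 5 call of Nsdhl was lost with 75th percentile scaling and in several other alternatives. Lss, the lanosterol synthase, fell on day 5 alone (-0.53 ± 0.12, adjusted p = 0.00739; -0.14 ± 0.13 with adjusted p = 0.414 on day 7), and the difference between the days did not pass the test (adjusted p = 0.153). Cyp51, the lanosterol demethylase, fell on day 7 (-0.40 ± 0.07, adjusted p = 0.000673), after -0.26 ± 0.09 (adjusted p = 0.0538) on day 5, which passed in 6 of 18 alternatives (-0.30 ± 0.09 with adjusted p = 0.0342 without replicate 4 of shRNA RUS). Ebp, a sterol isomerase, rose on day 5 (0.29 ± 0.07, adjusted p = 0.0116) and was at -0.34 ± 0.15 (adjusted p = 0.104) on day 7. Its rise was lost with TPM as deposited, in the fit over all 16 libraries and in another alternative. On day 7 it was called lower in the fit over all 16 libraries and without replicate 1 of shRNA RUS. Msmo1, the methylsterol monooxygenase, was not called on either day (-0.01 ± 0.08 and -0.13 ± 0.07).

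**Figure D3:**
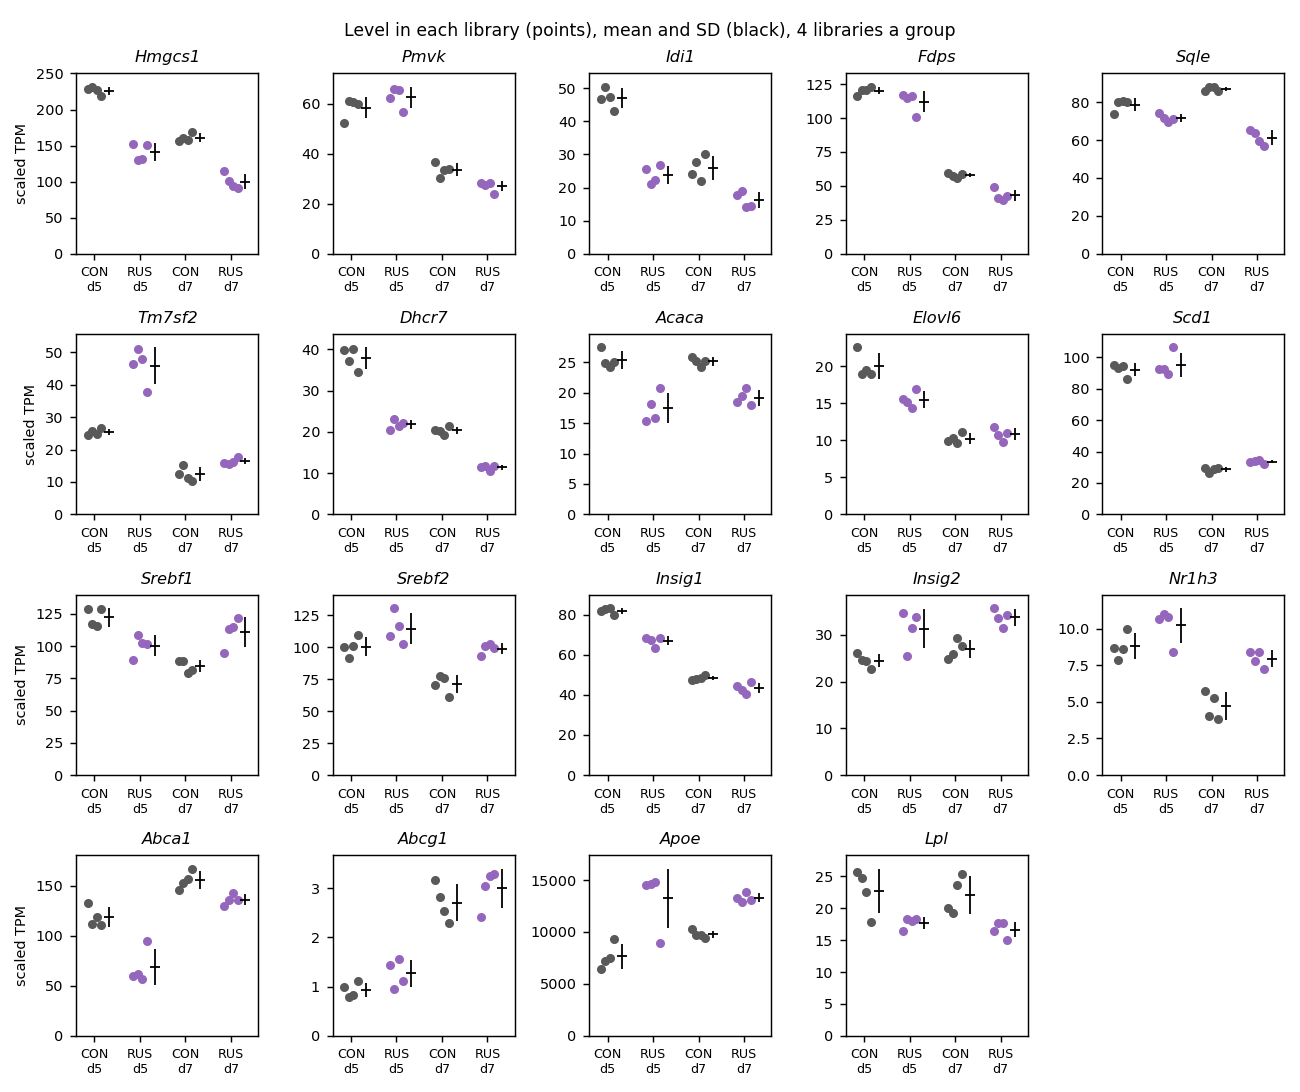
Scaled TPM in each library (y axis, from 0) for 19 genes in the 4 groups (x axis; CON and RUS, d5 for day 5 and d7 for day 7), with grey points for shRNA CON, purple points for shRNA RUS, and the mean and SD of 4 libraries in black. Hmgcs1, Idi1 and Dhcr7 were lower in every shRNA RUS library than in the controls of the same day, Tm7sf2 was higher, and 1 library of shRNA RUS on day 5 stood apart for Abca1 (95.2) and Apoe (8904).

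Srebf1 took opposite directions on the 2 days. It was at 129, 117, 115 and 129 scaled TPM in shRNA CON and at 89.5, 109, 103 and 101 in shRNA RUS on day 5, and at 88.7, 88.7, 79.4 and 81.4 against 94.5, 113, 115 and 122 on day 7. All shRNA RUS libraries thus lay below the controls on day 5 and above them on day 7. The effect was -0.28 ± 0.07 (adjusted p = 0.0133, lost with 75th percentile scaling) and 0.40 ± 0.08 (adjusted p = 0.00202), and the difference between the days was the one with the lowest p of the 36 genes (0.67 ± 0.11, adjusted p = 0.000325).

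Srebf2, whose product acts mainly on cholesterol genes, rose on day 7. It was at 100.2, 91.2, 101 and 110 scaled TPM in shRNA CON and at 108, 131, 117 and 102 in shRNA RUS on day 5, where the groups overlapped, and at 70.5, 77.2, 76.2 and 61.2 against 93.0, 101, 102 and 99.6 on day 7, where they did not. The change was 0.19 ± 0.09 (adjusted p = 0.131; 0.24 ± 0.08 with adjusted p = 0.0487 without replicate 4 of shRNA RUS) and 0.49 ± 0.07 (adjusted p = 0.000438). Scap, the escort of both factors, was higher on both days (0.47 ± 0.07, adjusted p = 0.000655; 0.55 ± 0.10, adjusted p = 0.00125).

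The Insig genes moved apart. Insig1, itself a target of SREBP, was at 81.7, 82.6, 83.3 and 79.7 scaled TPM in shRNA CON and at 68.4, 67.2, 63.6 and 68.5 in shRNA RUS on day 5, and at 47.4, 48.1, 48.2 and 49.9 against 44.5, 42.4, 40.6 and 46.6 on day 7. Its shRNA RUS libraries lay below the controls on both days, by less on day 7 (-0.29 ± 0.05 with adjusted p = 0.00133, then -0.14 ± 0.04 with adjusted p = 0.0273, a call lost without the eBayes trend or without any 1 of 5 of the libraries). Insig2 was at 26.2, 24.6, 24.4 and 22.7 against 34.6, 25.6, 31.4 and 33.9 on day 5, and at 24.9, 26.0, 29.3 and 27.7 against 35.8, 33.6, 31.4 and 34.3 on day 7. One shRNA RUS library lay among the controls on day 5 and none on day 7, and Insig2 rose on both days (0.35 ± 0.10, adjusted p = 0.02, lost with TPM as deposited and without replicate 4 of shRNA CON or 1 of shRNA RUS; 0.34 ± 0.06, adjusted p = 0.00107). Stard4, a carrier that moves sterol between membranes and another SREBP target, fell from 13.6 ± 1.03 to 8.96 ± 1.32 on day 5 (-0.60 ± 0.11, adjusted p = 0.00291) and from 12.0 ± 0.482 to 7.13 ± 1.13 on day 7 (-0.74 ± 0.10, adjusted p = 0.000164).

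Among the LXR genes, Nr1h2, the widely expressed LXR beta, rose on both days, from 58.5 ± 6.49 to 92.5 ± 14.8 on day 5 (0.65 ± 0.12, adjusted p = 0.00356) and from 54.5 ± 2.10 to 81.0 ± 8.89 on day 7 (0.58 ± 0.08, adjusted p = 0.000173). Nr1h3, LXR alpha, was at 8.70, 7.87, 8.61 and 9.98 scaled TPM in shRNA CON and at 10.6, 11, 10.8 and 8.43 in shRNA RUS on day 5, and at 5.74, 4.02, 5.29 and 3.80 against 8.39, 7.80, 8.39 and 7.23 on day 7. The library labelled replicate 4 of shRNA RUS lay among the controls on day 5, and no library did on day 7. The change of Nr1h3 was 0.21 ± 0.11 (adjusted p = 0.165; 0.30 ± 0.09 with adjusted p = 0.0249 without that replicate) and 0.78 ± 0.14 (adjusted p = 0.00104).

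The 4 efflux and lipoprotein genes, called efflux genes for short although Lpl is a lipase, had no common direction. On each day 1 rose, 2 fell and 1 was not called. Over all genes 14.8% were higher and 17.9% lower on day 5, and 23.4% and 25.8% on day 7. Abca1, which loads cholesterol onto apolipoproteins, was at 133, 112, 119 and 111 scaled TPM in shRNA CON and at 59.6, 61.8, 56.6 and 95.2 in shRNA RUS on day 5, and at 146, 152, 157 and 167 against 130, 136, 143 and 136 on day 7. All shRNA RUS libraries lay below the controls on both days, with replicate 4 of day 5 far from the other 3. The effect on day 5 was -0.82 ± 0.15 (adjusted p = 0.00293; -0.99 ± 0.07 with adjusted p = 3.88e-05 without replicate 4), and on day 7 it was -0.18 ± 0.05 (adjusted p = 0.0107, lost in a fit over all 16 libraries). The difference between the days passed the test (0.63 ± 0.17, adjusted p = 0.0115).

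Apoe, the main apolipoprotein of the brain, rose. Its level was 6465, 7185, 7525 and 9355 scaled TPM in shRNA CON and 14540, 14650, 14800 and 8904 in shRNA RUS on day 5, and 10240, 9686, 9695 and 9414 against 13230, 12930, 13890 and 13060 on day 7. The library labelled replicate 4 of shRNA RUS lay below the highest control on day 5, while the other 3 and all 4 of day 7 lay above every control. The rise was 0.78 ± 0.18 (adjusted p = 0.0106; 0.96 ± 0.12 with adjusted p = 0.000422 without replicate 4) and 0.46 ± 0.04 (adjusted p = 2.08e-05). The call of day 5 was not kept in every alternative. The astrocyte and radial glia sum, given above, was higher in shRNA RUS on both days too, though only 4 of its 10 genes had all shRNA RUS libraries above all controls on each day, and 1 on day 5 and 2 on day 7 had all of them below. Its part in the result for Apoe was not tested.

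Lpl, the lipoprotein lipase, was at 25.7, 24.8, 22.6 and 17.9 scaled TPM in shRNA CON and at 16.4, 18.3, 18 and 18.3 in shRNA RUS on day 5, and at 19.98, 19.3, 23.7 and 25.4 against 16.4, 17.6, 17.7 and 15.1 on day 7. One control overlapped with shRNA RUS on day 5 and none on day 7. Its log2 fold changes were -0.34 ± 0.11 (adjusted p = 0.0387, a call that several alternatives lost) and -0.38 ± 0.10 (adjusted p = 0.0077). Abcg1, a second exporter, was at 0.991, 0.796, 0.834 and 1.11 against 1.43, 0.958, 1.56 and 1.12 on day 5, and at 3.17, 2.82, 2.53 and 2.30 against 2.41, 3.05, 3.24 and 3.28 on day 7. The groups overlapped on both days at these low levels (0.39 ± 0.19, adjusted p = 0.139; 0.16 ± 0.14, adjusted p = 0.383), although Abcg1 was called higher on day 5 with quantile normalization.

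Of the 6 fatty acid synthesis genes, 3 fell and none rose on day 5 (17.9% and 14.8% of all genes), while 4 rose and 1 fell on day 7 (23.4% and 25.8% of all genes). Acaca, the acetyl-CoA carboxylase that makes malonyl-CoA, was the one that fell on both days. It was at 27.5, 24.8, 24.3 and 25.0 scaled TPM in shRNA CON and at 15.4, 18.1, 15.9 and 20.8 in shRNA RUS on day 5, and at 26.0, 25.3, 24.3 and 25.2 against 18.4, 19.4, 20.8 and 17.95 on day 7. The groups did not overlap on either day (-0.54 ± 0.10, adjusted p = 0.00272; -0.38 ± 0.06, adjusted p = 0.000331).

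Elovl6, which lengthens palmitate, was lower on day 5 and near its control on day 7. Its libraries were at 22.6, 18.9, 19.5 and 19.0 against 15.5, 15.2, 14.4 and 17.0 on day 5 and at 9.88, 10.3, 9.61 and 11.2 against 11.9, 10.7, 9.83 and 10.99 on day 7. The groups were apart on day 5 and overlapped on day 7 (-0.36 ± 0.08, adjusted p = 0.00672; 0.09 ± 0.07, adjusted p = 0.306), and the difference between the days passed the test (0.44 ± 0.11, adjusted p = 0.00587). Scd1, a stearoyl-CoA desaturase, was at 95.1, 93.1, 94.3 and 86.2 against 92.6, 92.3, 89.6 and 106 on day 5, and at 29.4, 26.6, 29.1 and 29.7 against 33.5, 33.7, 34.8 and 32.4 on day 7. Its groups overlapped on day 5 and were apart on day 7, where shRNA RUS was higher (0.05 ± 0.06, adjusted p = 0.621; 0.24 ± 0.05, adjusted p = 0.00184).

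Fasn, the fatty acid synthase, and Acly, which supplies cytosolic acetyl-CoA, rose on day 7 (0.32 ± 0.08, adjusted p = 0.00851; 0.12 ± 0.03, adjusted p = 0.00582) after -0.01 ± 0.13 and -0.09 ± 0.06 on day 5, neither of which was called. Acly was called lower on day 5 with TPM as deposited and with quantile normalization. Scd2, the desaturase most abundant here, went from 1337 ± 43.7 to 1118 ± 123 on day 5 (-0.26 ± 0.08, adjusted p = 0.0299) and from 1008 ± 4.63 to 1064 ± 35.95 on day 7 (0.09 ± 0.03, adjusted p = 0.0425). Both calls of Scd2 were lost under several alternatives, while the difference between the days held (0.34 ± 0.08, adjusted p = 0.00646).

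Synthesis and efflux genes were set side by side by their medians. Over the 18 cholesterol synthesis genes the log2 fold changes had their median at -0.12 on day 5, with 7 lower (38.9%) and 3 higher (16.7%) against 17.9% and 14.8% of all genes, and at -0.30 on day 7, with 10 lower (55.6%) and 2 higher (11.1%) against 25.8% and 23.4%. The 6 fatty acid genes had medians of -0.18 and 0.11, and the 4 efflux genes of 0.03 and -0.01. The median of all genes tested was -0.06 on day 5 and -0.03 on day 7. Per library, the median difference of the 18 genes from the control mean was between -0.161 and -0.0501 in shRNA RUS on day 5 and between -0.378 and -0.23 on day 7, while the controls lay between -0.0296 and 0.0272. For the efflux genes the libraries of both groups overlapped on both days (-0.126 to 0.188 against -0.0764 to 0.13 on day 5, -0.206 to 0.0707 against -0.0192 to 0.0271 on day 7). The sign of their median relative to all genes turned with the setting on both days. With 1 library left out it turned on day 7 (-0.0144 to 0.0846) and not on day 5 (0.0304 to 0.134). Hence the cholesterol synthesis genes leaned lower on day 7, with exceptions named above. The efflux and lipoprotein genes were split between Apoe on the one side and the exporter Abca1 and the lipase Lpl on the other.

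Further genes of the pathways were counted from 2 lists of genes outside the 36. Of 18 other SREBP pathway genes, 3 rose and 3 fell on day 5 (16.7% each way), near the shares of all genes given above, and of the 17 tested on day 7, 8 rose and 5 fell (47.1% and 29.4%, against 23.4% and 25.8% of all genes). Aacs, which makes acetoacetyl-CoA from ketone bodies for lipid synthesis, fell from 41.9 ± 3.95 to 20.4 ± 2.91 scaled TPM on day 5 (-1.04 ± 0.11, adjusted p = 0.000163) and from 35.3 ± 1.57 to 16.7 ± 0.764 on day 7 (-1.06 ± 0.05, adjusted p = 4.25e-07). Gpam, the glycerol-phosphate acyltransferase of triglyceride and phospholipid synthesis, rose to 185 ± 7.60 from 92.3 ± 2.79 on day 7 (1.02 ± 0.04, adjusted p = 1.22e-07), and so did the phosphatidate phosphatase Lpin1 (0.91 ± 0.05, adjusted p = 8.81e-07). Fads1, a fatty acid desaturase, fell on day 5 (-0.51 ± 0.06, adjusted p = 0.000307). Fabp5, a fatty acid carrier, rose on day 5 (0.82 ± 0.09, adjusted p = 0.000248) and fell on day 7 (-0.17 ± 0.05, adjusted p = 0.0204).

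Of 12 other genes of LXR targets and of sterol export and storage, 3 rose (25.0%, against 14.8% of all genes) and none fell (17.9% of all genes) on day 5, and 6 rose (50.0% against 23.4%) and 5 fell (41.7% against 25.8%) on day 7. The 3 with the lowest p were the same on both days. Npc1 and Npc2, which release cholesterol from lysosomes, rose from 54.9 ± 2.09 to 85.2 ± 8.67 and from 122 ± 4.08 to 190 ± 14.8 scaled TPM on day 5, and from 46.2 ± 1.499 to 82.7 ± 1.98 and from 92.7 ± 2.25 to 166 ± 6.35 on day 7. The effects were 0.63 ± 0.08 (adjusted p = 0.000349) and 0.64 ± 0.06 (adjusted p = 0.000123) on day 5, and 0.85 ± 0.04 for both on day 7 (adjusted p = 2.56e-07 and 1.94e-07). Lpcat3, a phospholipid remodelling enzyme under LXR, rose as well (0.47 ± 0.05, adjusted p = 9.35e-05; 0.65 ± 0.05, adjusted p = 5.28e-06).

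From day 5 to day 7, most genes of cholesterol synthesis fell with either shRNA, 15 of 18 in shRNA CON and 16 of 18 in shRNA RUS. In shRNA CON, 25 of the 36 genes were lower on day 7 and 4 higher (21.6% and 26.9% of all genes, 48.5% together), and in shRNA RUS 23 were lower and 3 higher (25.8% and 35% of all genes, 60.8% together). All 7 genes of the mevalonate arm fell in both groups, with medians of -0.80 in shRNA CON and -0.79 in shRNA RUS (Idi1 lost its call in shRNA RUS with TPM as deposited), and 8 and 9 of the 11 sterol arm genes fell, with medians of -0.48 and -0.74. Sqle rose in shRNA CON (0.15 ± 0.05, adjusted p = 0.0171) and fell in shRNA RUS (-0.22 ± 0.05, adjusted p = 0.000584), while Sc5d rose in shRNA RUS (0.23 ± 0.06, adjusted p = 0.00252, lost with 75th percentile scaling) and Lss fell in shRNA CON (-0.43 ± 0.13, adjusted p = 0.0134, lost with TPM as deposited) and was not called in shRNA RUS. The fall of Sqle in shRNA RUS turned to 0.0998 with TPM as deposited and lost its call with quantile normalization, and its rise in shRNA CON was lost with 75th percentile scaling. Of the 6 fatty acid genes, 5 fell in shRNA CON and 3 in shRNA RUS, where Acly and Scd2 were not called, and Acaca was called in neither group. In shRNA RUS these calls depended on the setting: Scd2 and Acly were called higher with TPM as deposited and with quantile normalization and lower with 75th percentile scaling, and Acaca was called higher with TPM as deposited and also without replicate 4 of day 5. The median of all genes was 0.07 and 0.13. Scd1 fell most in shRNA CON and was among the genes that fell most in shRNA RUS (-1.68 ± 0.06, adjusted p = 3.23e-12; -1.50 ± 0.06, adjusted p = 9.23e-12). Mvd (-1.24 ± 0.08 and -1.44 ± 0.08), Fasn (-1.15 ± 0.12 and -0.83 ± 0.12), Fdps (-1.06 ± 0.06 and -1.38 ± 0.06) and Tm7sf2 (-1.04 ± 0.11 and -1.47 ± 0.11) came next in shRNA CON. In shRNA RUS Tm7sf2 and Mvd lay within the SE of Scd1, and Fdps and Pmvk (-1.20 ± 0.08) came after them.

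Of the 4 efflux genes, Abca1 and Abcg1 rose with time in both groups. Abcg1 went from 0.932 ± 0.143 to 2.71 ± 0.375 scaled TPM in shRNA CON (1.44 ± 0.16, adjusted p = 2.16e-06) and from 1.27 ± 0.277 to 2.997 ± 0.406 in shRNA RUS (1.19 ± 0.16, adjusted p = 9.36e-06). Abca1 rose by 0.39 ± 0.12 (adjusted p = 0.0141) and 1.03 ± 0.12 (adjusted p = 2.21e-06), and Apoe by 0.37 ± 0.14 in shRNA CON (adjusted p = 0.0412), a call lost under most alternatives. Apoe in shRNA RUS (0.04 ± 0.14) and Lpl in both groups (-0.04 ± 0.11 and -0.09 ± 0.11) were not called, although in shRNA RUS Lpl was called lower with 75th percentile scaling and Apoe higher with TPM as deposited and with quantile normalization. The scaling matters for these comparisons in shRNA RUS: 9 genes were higher and 16 lower with TPM as deposited, where the median of all genes was 0.415, and 7 were higher and 21 lower with quantile normalization. Of all genes, 49.6% were higher and 14.9% lower with TPM as deposited, and 29.4% and 28.8% with quantile normalization. Microglia genes rose from day 5 to day 7 in shRNA CON, as the sums above show; their part was not tested, and on day 5 their means in shRNA CON ranged upwards from 1.51 scaled TPM (Ptprc), so none was at 0.

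**Figure D4:**
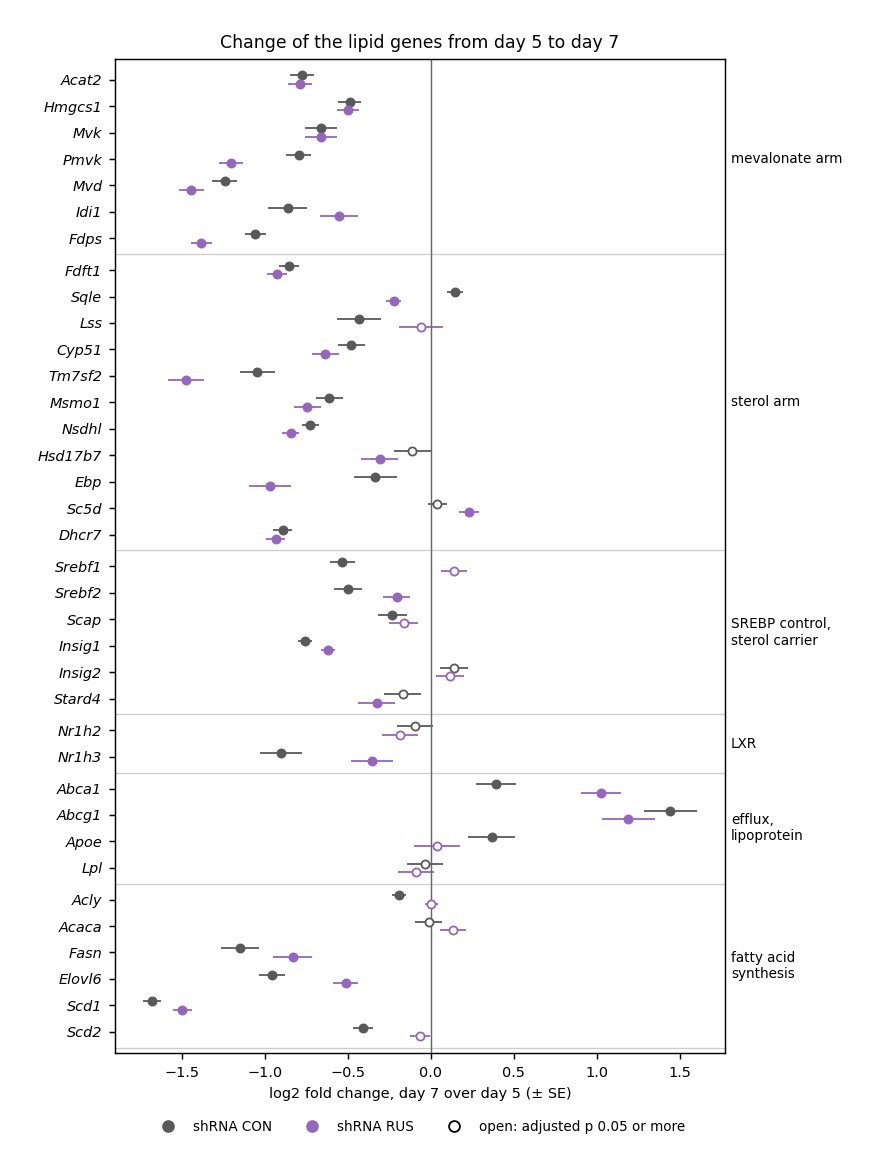
Log2 fold change from day 5 to day 7 with its SE (x axis) for the 36 genes (y axis) grouped by role, in shRNA CON (grey) and shRNA RUS (purple), 4 libraries a group and day, with filled points where the adjusted p was under 0.05. All 7 genes of the mevalonate arm lie left of zero in both groups, Abca1 and Abcg1 lie right of it, and Sqle lies right in shRNA CON and left in shRNA RUS, where it turns to 0.0998 with TPM as deposited.

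The knockdown effect differed between the days for 11 of the 36 genes, 6 towards higher and 5 towards lower values on day 7, against 15.2% and 14.6% of all genes (29.8% together), shares that lie near those of the set (16.7% and 13.9%). The split was 12 and 1 with TPM as deposited, where the median of all genes was 0.192 in place of 0.04, 8 and 4 with quantile normalization, and 4 and 6 with 75th percentile scaling. The shares of all genes in these settings were 24.0% and 8.63%, 14.9% and 14.3%, and 11.2% and 18.2%. The 6 that moved up were Srebf1, Elovl6, Scd2, Abca1, Acly and Nr1h3, and the 5 that moved down were Sqle, Pmvk, Fdps, Ebp and Tm7sf2. With TPM as deposited, Pmvk, Fdps, Ebp and Tm7sf2 lost the call, and Idi1, Sc5d, Srebf2, Insig1, Fasn and Scd1 were called upwards as well. Srebf1, Sqle, Elovl6, Scd2 and Abca1 kept the call in each of the 25 alternatives, and the other 6 lost it in at least 1. For Hmgcs1 (-0.01 ± 0.10), Dhcr7 (-0.04 ± 0.08), Fdft1 (-0.08 ± 0.08) and Insig2 (-0.02 ± 0.12) the estimated differences between the days were smaller than their SE or equal to it.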

How the data were processed

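RNA-seq of 16 libraries of NSC was analysed (shRNA CON or shRNA RUS, day 5 or day 7, 4 each), grouped as labelled. The authors sequenced polyA RNA on an Illumina NextSeq, aligned with STAR to mm10 (GRCm38), quantified with RSEM and compared with DESeq2. The deposited tables, 1 per day with 55471 lines each, hold TPM per library, the authors' mean normalized signal per gene, and their own fold changes and p-values, which were not used. TPM keeps no depth and is relative to all other RNA of a library.

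Each library's TPM were scaled by its median ratio to the libraries' geometric mean (from genes at 1 TPM or more throughout), and 0.1 was added before log2, which understates changes of low genes. Genes averaging 0.1 TPM or more were tested with limma 3.58.1 in R 4.3.3 (trend, two-sided, Benjamini-Hochberg over all genes tested, threshold 0.05), per day for knockdown effects (22581 and 24606 genes) and over 16 libraries for the other comparisons (23789 genes; 106 lines without a common symbol were left out). Levels are on the scale of the 16 libraries. The procedure was tested on simulated data. Python 3.11.15, pandas 2.3.3 and numpy 2.4.6 were used. Members and lists were chosen with earlier results of these data known. All 36 genes are named; values per library are given for the efflux genes, Srebf1, Srebf2, Insig1, Insig2, Nr1h3, and in each synthesis group for the 2 genes with the lowest p on each day and the one with the lowest p for the difference between days; of the other 2 lists, the 3 with the lowest p per day. Alternatives were other pseudocounts (1, 0.01), filters (1 TPM, none), scalings, no trend, a replicate block, a fit over all libraries and leaving out each library.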

Additional observations from a re-analysis of the deposited data

Results flagged for a closer look

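In 13 of 144 groups of 4 libraries (36 genes in 4 groups), 1 library stood apart from the other 3 by Dixon's criterion, which chance gives in about 1 of 20 groups. Replicate 4 of shRNA RUS on day 5 was the library in 4 of them: Fdps at 100.5 scaled TPM against 115 to 117 in the other 3, Nr1h3 at 8.43 against 10.6 to 11, Abca1 at 95.2 against 56.6 to 61.8, and Apoe at 8904 against 14540 to 14800. Replicate 1 of shRNA CON on day 5 was low for Pmvk (52.2 against 59.7 to 61.3) and Sqle (73.7 against 80.0 to 80.9) and high for Elovl6 (22.6 against 18.9 to 19.5). Replicate 4 of the same group was high for Ebp (28.0 against 25.0 to 25.5), and replicate 1 of shRNA RUS on day 5 was low for Lpl (16.4 against 18 to 18.3). On day 7, replicate 4 of shRNA CON was high for Sc5d (55.6 against 51.9 to 52.2) and Acly (88.2 against 84.4 to 85.1), and replicate 1 of shRNA RUS was high for Fdft1 (37.1 against 32.5 to 32.9) and Stard4 (8.82 against 6.54 to 6.59).

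The knockdown effect on day 7 differed from that on day 5 (log2, day 7 minus day 5; limma's interaction contrast with adjusted p) for Srebf1 by 0.674 (adjusted p = 0.000325), Elovl6 by 0.443 (adjusted p = 0.00587), Scd2 by 0.342 (adjusted p = 0.00646), Abca1 by 0.634 (adjusted p = 0.0115), Acly by 0.198 (adjusted p = 0.0197) and Nr1h3 by 0.55 (adjusted p = 0.0298). It differed downwards for Sqle (-0.369, adjusted p = 0.000722), Pmvk (-0.408, adjusted p = 0.00905), Fdps (-0.325, adjusted p = 0.0107), Ebp (-0.633, adjusted p = 0.0152) and Tm7sf2 (-0.429, adjusted p = 0.0444).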

How the results depend on the processing

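Counts of called genes on day 5 ranged from 5 to 8 higher and 11 to 19 lower over the settings, and on day 7 from 12 to 13 and 14 to 15; no call of a knockdown effect changed its sign, while 7 of 22 calls on day 5 and 3 of 28 on day 7 were lost in at least 1 of 18 alternatives. With 1 library left out, limma's adjusted p rose above the threshold in at least 1 case, to between 0.0509 and 0.102, for Insig2, Lpl, Nsdhl and Scd2 on day 5 (2, 6, 4 and 7 of the libraries), and to between 0.0533 and 0.11 for Insig1 and Scd2 on day 7 (5 and 7); for the difference between the days it did so for Nr1h3 and Tm7sf2 (5 and 12 of the 16, to at most 0.089), and for the change with time for Apoe, Ebp, Lss, Scap and Sqle in shRNA CON (at most 0.133) and Hsd17b7, Nr1h3, Srebf2 and Stard4 in shRNA RUS (at most 0.145). From day 5 to day 7 in shRNA CON, 2 genes were higher with 75th percentile scaling in place of 4 (2 to 4 with 1 library left out, the lowest without replicate 1 of day 5). With that scaling 22.6% of all genes were higher, in place of 26.9%. In shRNA RUS, 9 were higher with TPM as deposited and 7 with quantile normalization in place of 3, against 49.6% and 29.4% of all genes in place of 35.0%. For the difference between the days, 12 were higher and 1 lower with TPM as deposited in place of 6 and 5. Of all genes 24.0% were higher and 8.63% lower in that setting, in place of 15.2% and 14.6%. The cause of these changes was not tested. Called values that turned in sign, or turned and were called under the alternative, were those of day 7 over day 5 in shRNA RUS: with TPM as deposited Sqle (0.0998), Hsd17b7 (0.0145), Srebf2 (0.118) and Scd2 (0.259); with quantile normalization Srebf2 (0.0194) and Scd2 (0.558); and with 75th percentile scaling Acly (-0.167). Relative to all genes, the median of the 18 cholesterol synthesis genes on day 5 was -0.057, and -0.104 with a filter at 1 TPM and -0.221 with quantile normalization (-0.0878 to -0.0167 with 1 library left out); that of the 6 fatty acid genes was -0.116, and -0.272 with quantile normalization (-0.153 to -0.0866 with 1 library left out). On day 7 the latter was 0.136, and 0.12 with a pseudocount of 1, 0.112 with the filter at 1 TPM and 0.13 to 0.163 with 1 library left out. The median of the efflux genes lay between -0.0209 and 0.134 on day 5 and between -0.0144 and 0.0846 on day 7. Same-numbered libraries did not deviate together (r from -0.105 to 0.0325, own number best in 3 of 16 comparisons); with the replicate number as a block, 5 genes were higher and 11 lower on day 5, where Apoe (adjusted p = 0.0526), Ebp, Nsdhl, Srebf1, Lpl and Scd2 lost the call, and 12 and 15 on day 7, where Scd2 did. With that block 9.88% of all genes were higher and 12.1% lower on day 5, and 21.7% and 24.0% on day 7. RUS was at 71.0% of its control mean on day 5 (32.9 to 94.7% with 1 library left out) and 43.2% on day 7 (25.2 to 57.7%). What depth limits cannot be given, since TPM hold no read numbers.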
